A study of Mus musculus with 12 samples.

Results

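The genes described here encode the proteins of the cytosolic ribosome. They were taken from the table by symbol: Rpl or Rps followed by a number and at most 1 letter a, l or x, plus Rplp0, Rplp1, Rplp2 and Rpsa, with the pseudogene symbols ending in -ps left out. This gave 83 of the 54227 symbols, 51 of the large subunit and 32 of the small subunit. In the GENCODE M21 annotation of GRCm38 (mm10), 80 of the 83 are protein-coding genes; Rps4l, Rpl32l and Rpl6l are annotated as processed pseudogenes although their symbols fit the rule.

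All libraries came from C57Bl/6 mice carrying the transgene Sox9EGFP, in which green fluorescence reports on Sox9, a transcription factor of bile duct cells; ages and sexes are not in the labels used here. The mice were fasted for 16 h, livers were dissociated, and cells were sorted by fluorescence into 4 populations: GFP-negative (neg), GFP sub-low (sub), GFP-low (low) and GFP-high (high). Each of the 3 libraries per population was total RNA from 12000 sorted cells, and the transgene and the fast are shared by all 4 populations. Recovered depth ranged from 8775387 reads in neg 2 to 15535588 reads in neg 1. The labels do not say whether the libraries came from separate mice, so p-values measure only the spread between these libraries, which may be technical.

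Markers of liver cell types differed between the populations. The summed level of 15 biliary markers made up 0.0032 to 0.0081% of all normalised counts for neg, 0.233 to 0.409% for sub, 0.816 to 0.974% for low and 0.767 to 0.771% for high. In neg, 6 of the 15 were at 0 in all 3 libraries, among them Epcam and Spp1, and in each of the other populations 1 was. The sum of 10 endothelial markers was 1.04 to 1.42% in neg, 0.311 to 0.382% in sub and at most 0.021% in low and high. In bulk samples of sorted cells, fewer cells of a type and less RNA per cell cannot be told apart.

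A ribosome is built from a small subunit, which reads the messenger RNA, and a large subunit, which joins amino acids. Nearly every protein of either subunit is present in a fixed number per ribosome, and the messenger RNAs of these proteins share a terminal oligopyrimidine (TOP) start, a run of C and T at the first transcribed base through which the mTORC1 kinase pathway sets their translation. Ribosomal protein genes are also known for the many processed pseudogenes copied from them, intronless sequences that can be nearly identical to the spliced messenger RNA.

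The coding stretches of the pairs named most often below are shown first, so that the likeness between member and copy can be seen. Rplp0 lies on chromosome 5 at 115559467 to 115563727, plus strand, and its processed pseudogene Gm8730 on chromosome 8 at 102864845 to 102865798, minus strand. Over the 951 coding bases of Rplp0 without the stop codon, Gm8730 differed at 12 positions (98.7% identity), and the longest stretch without a difference was 167 bases. Bases 376 to 447, counted from the A of the start codon, hold A390G, A393G and A447T, written as the Rplp0 base, its position and the Gm8730 base. Rpl19 (chromosome 11 at 98026710 to 98030492, plus strand) and Rpl19-ps11 (chromosome 8 at 19492936 to 19493526, plus strand) differed only by G191A over 588 coding bases. Rps27 (chromosome 3 at 90212522 to 90213651, minus strand) and Rps27rt (chromosome 9 at 114982366 to 114982739, minus strand), an annotated protein-coding gene that the symbol rule leaves out, had the same 252 coding bases. The stretches are from GENCODE M21 transcripts, 5′ to 3′, with the differing bases in capitals.
Rplp0: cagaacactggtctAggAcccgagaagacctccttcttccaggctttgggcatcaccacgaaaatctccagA
Gm8730: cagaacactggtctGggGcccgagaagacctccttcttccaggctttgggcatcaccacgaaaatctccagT
Rpl19: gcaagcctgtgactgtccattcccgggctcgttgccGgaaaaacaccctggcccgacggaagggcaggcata
Rpl19-ps11: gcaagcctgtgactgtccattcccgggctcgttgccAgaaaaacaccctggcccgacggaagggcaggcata
Rps27 and Rps27rt: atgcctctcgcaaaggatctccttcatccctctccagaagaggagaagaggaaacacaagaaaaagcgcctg

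The start of the genes was examined for what the members share beyond their names. RefSeq windows (GRCm38.p6, 250 bases before and 50 after an annotated start) were matched for 61 of the 83 members. A TOP-like start, here a C followed by 4 pyrimidines with at least 3 T among the 5 bases and beginning within 10 bases of the start, was found in 25 of the 61 members and in 13.4% of 27025 genes. The motif CCGGAAG, bound by ETS family factors such as GABP and searched on both strands, was in the 300-base window of 25 of the 61 members and in 9.93% of all genes. The motif AAGATGGC (YY1) was in 8.20% of members and 3.19% of genes, GGGCGG (SP1) in 59.0% and 38.2%, and TATAAA in 11.5% and 15.7%. These are matches of letters, not measured sites. The windows of Rps6, Rps27 and Rpl13a are shown for their pyrimidine run, in capitals from the base where the search match begins. In each of them the base just before the capitals is also a pyrimidine, so the run itself begins earlier. The window of Rplp0, where the search found none, is shown as well. Every window runs from 40 bases before the RefSeq start to 20 bases after it.
Rps6 (chr4:86857348-86857407, minus strand): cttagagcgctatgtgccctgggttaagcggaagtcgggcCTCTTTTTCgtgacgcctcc
Rps27 (chr3:90213629-90213688, minus strand): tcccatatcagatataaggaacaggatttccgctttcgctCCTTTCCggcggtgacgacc
Rpl13a (chr7:45128726-45128785, minus strand): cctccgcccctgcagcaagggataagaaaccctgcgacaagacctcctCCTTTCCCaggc
Rplp0 (chr5:115559427-115559486, plus strand): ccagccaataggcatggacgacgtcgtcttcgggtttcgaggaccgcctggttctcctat

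Of the 83 members, 80 were above 0 in at least 1 library, and Rpl3l, Rpl10l and Rpl39l were at 0 in all 12. A count of 0 allows up to 3 reads in a library, or 2.07 to 3.67 normalised counts, and covers counting error only. A mean of at least 10 normalised counts, the limit for testing, was reached by 79 members, 77 of them protein-coding. Many of the values were all or nothing. Only 22 members were above 0 in every library, 46 were at 0 in 1 to 5 libraries and 12 in 6 to 11. Among the 79 tested members the median number of libraries at 0 was 2, against 5 over all 16128 genes tested, and 27.8% were above 0 throughout, against 19.8%. The median SD of log2 values over the 12 libraries was 3.01 for the members and 3.16 for all tested genes. The members' median mean level was 518 normalised counts and that of all tested genes 154.

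**Figure D1:**
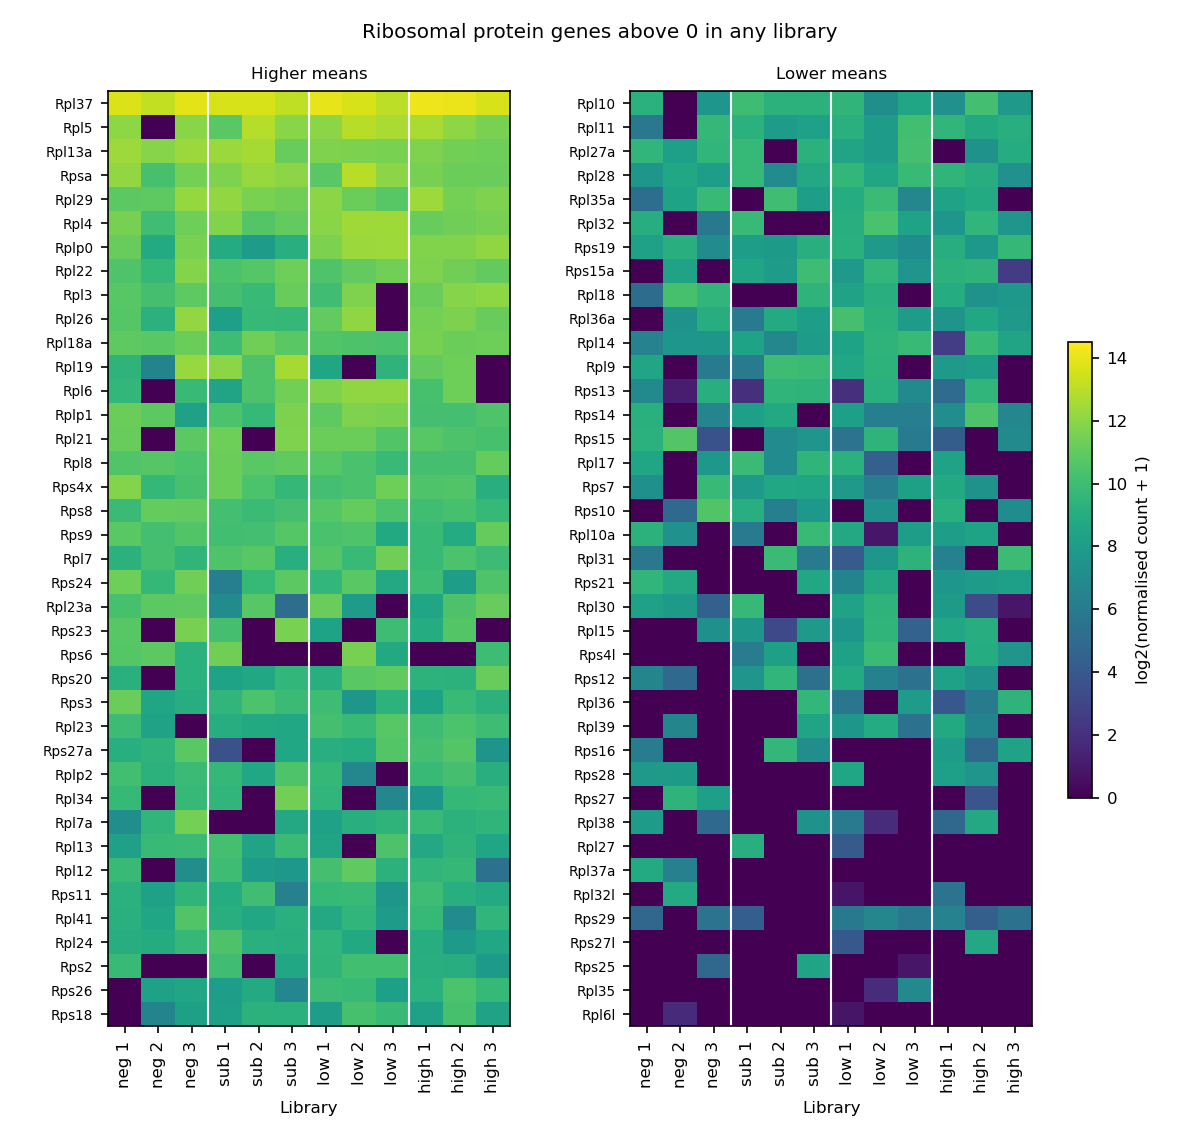
Heat map of log2(normalised count + 1) for 78 of the 80 ribosomal protein genes above 0 in any library (rows, ordered by mean) in the 12 libraries (columns, grouped by population with white lines between them). Rpl37 is the brightest row in every library, and dark cells, values of 0, are scattered through rows that are bright elsewhere.

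Rpl37, a zinc-binding protein of the large subunit, had the highest level of all members in each of the 12 libraries. Its normalised count was 13501, 9109 and 15576 in neg, 12442, 12825 and 8788 in sub, 15968, 12383 and 8530 in low, and 17777, 17496 and 12837 in high. It held 10.6 to 20.1% of the members' summed value, and per kb of its longest coding transcript its mean of 15692 normalised counts was above the 3767 of Rpl29, the next. Its SD of log2 values, 0.37, was the smallest of the tested members. All 3 high libraries lay above all 3 sub libraries, by the narrow gap between high 3 and sub 2, and the log2 change of 0.50 ± 0.24 (SE) had a limma adjusted p of 0.481.

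Rpl5, Rpl13a, Rpsa and Rpl29 followed in mean level. Rpl13a, a large-subunit protein also known as part of a complex that silences translation of inflammatory messenger RNAs, was at 5411, 3724 and 5069 in neg, 5045, 5998 and 2260 in sub, 3353, 3193 and 3007 in low, and 3361, 2713 and 2557 in high. Its neg libraries were above all of its low and high libraries. The log2 difference of high from neg was -0.71 ± 0.40 (limma adjusted p = 0.409) and of low from neg -0.56 ± 0.40 (limma adjusted p = 0.549). Rpl29, a large-subunit surface protein, ranged from 1701 in low 3 to 5231 in high 1, with overlap between every pair of populations. Rpl8, which lies near the peptidyl transferase centre, was among the steadiest members (SD of log2 values 0.42), at 1485, 1666 and 1325 in neg, 2454, 1772 and 1987 in sub, 1706, 1307 and 880 in low, and 1214, 1216 and 2194 in high. The sub libraries of Rpl8 were above those of neg and of low, and neither difference passed (limma adjusted p = 0.815 and 0.729).

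At the other end, Rps6, Rps23 and Rpl19 had the largest SD of log2 values, 5.39, 5.13 and 4.37. Rps6, the small-subunit protein phosphorylated by S6 kinase below mTORC1, was at 1639, 1850 and 615 in neg, 2657, 0 and 0 in sub, 0, 2962 and 440 in low, and 0, 0 and 1019 in high. Libraries of the same population were thus at 0 and above 2500, and no comparison of Rps6 passed (lowest limma adjusted p = 0.327, high against neg). Rps23, a protein of the decoding centre, was at 1715, 0 and 2905 in neg, 1190, 0 and 3039 in sub, 333, 0 and 1026 in low, and 510, 1581 and 0 in high. A library at 0 was found in every population of Rps23.

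In the share summed over all members, the 4 populations overlapped. The 83 genes held 0.787, 0.462 and 0.924% of all normalised counts in neg, 0.691, 0.633 and 0.752% in sub, 0.776, 0.908 and 0.689% in low, and 0.819, 0.825 and 0.659% in high. The means were 0.724 ± 0.237, 0.692 ± 0.0597, 0.791 ± 0.111 and 0.768 ± 0.0939% (SD, n = 3 each). The lowest share was in neg 2, the library of the lowest depth, where 29 members were at 0. Low 1 had the fewest members at 0, 10, at a depth of 14716505 reads. The summed large-subunit genes were 2.03 to 3.97 times the summed small-subunit genes, with both extremes in single libraries, neg 1 and low 1. This ratio was 2.03 to 2.90 in neg, 2.68 to 2.88 in sub, 2.36 to 3.97 in low and 3.20 to 3.57 in high. All high libraries thus lay above all neg and sub libraries in the ratio, a difference that was not tested.

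**Figure D2:**
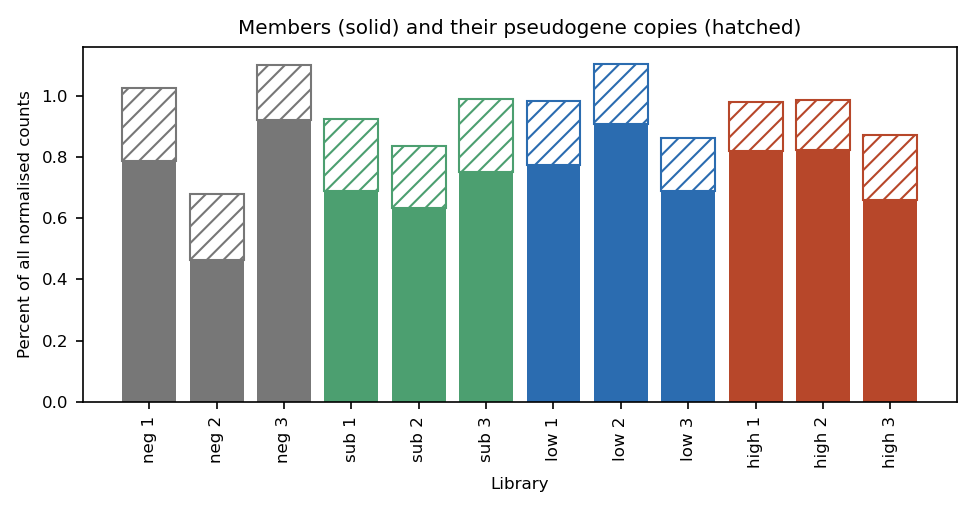
Percent of all normalised counts held by the 83 members (solid bars) and by their pseudogene copies (hatched, stacked on top) in each library, coloured by population. The lowest solid bar is neg 2 at 0.462% and the highest is neg 3 at 0.924%, both of the same population.

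The members that form the stalk of the large subunit, where elongation factors dock, are Rplp0, Rplp1 and Rplp2. In the limma fit, Rplp0 was the only member past the threshold in any comparison. Its normalised count was 2210, 471 and 3111 in neg, 478, 245 and 548 in sub, 3193, 5055 and 5226 in low, and 3511, 3394 and 4436 in high. All sub libraries lay below all low and high libraries, while neg 2 lay among the sub libraries. Rplp0 rose from sub to low by 3.45 ± 0.68 on the log2 scale (limma adjusted p = 0.0243) and was higher in high than in sub by 3.23 ± 0.68 (limma adjusted p = 0.0265). The F test over the populations also passed, and still called Rplp0 without any 1 of the 12 libraries. Sub differed from neg by -1.88 ± 0.68 (adjusted p = 0.306), and low and high lay above every neg library but differed from neg by 1.57 and 1.34 with adjusted p of 0.249 and 0.338. Without neg 2 these differences were 0.74 and 0.52, and without neg 3 they were 2.10 and 1.88.

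Each Rplp0 call depended on some of the libraries of the populations compared. The low call was lost without sub 1, sub 2, low 2 or low 3 (adjusted p = 0.0522, 0.116, 0.0963 and 0.0951), and the high call without sub 1, sub 2, sub 3, high 1, high 2 or high 3 (adjusted p = 0.0602, 0.113, 0.0552, 0.0910, 0.0860 and 0.117). The log2 change lay between 2.87 and 3.68 without any 1 library. Both calls were also lost without a variance trend (limma adjusted p = 0.206 and 0.241) and when only the populations compared were fitted (limma adjusted p = 0.187 and 0.0996), and the high call without the filter on low values (limma adjusted p = 0.0508); over all alternatives the adjusted p ran from 1.17e-05 to 0.779 for low and from 6.37e-05 to 0.844 for high. The biliary and endothelial marker sums also separate sub from low and high, as given above. So do the stellate and mesenchymal marker sum, given with Vim below, and the hepatocyte marker sum. The latter was 0.0712 to 0.0747% in sub, 0.129 to 0.196% in low and 0.184 to 0.207% in high. The part of these marker sums in the Rplp0 difference was not tested.

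The pseudogene Gm8730 had its highest population mean in sub, where the mean of Rplp0 was lowest, although sub 2 lay within the range of other populations. It was at 2008, 2545 and 0 in neg, 5285, 2021 and 3761 in sub, 0, 2207 and 0 in low, and 745, 577 and 1610 in high. The differences of Gm8730 did not pass: low differed from sub by -8.04 ± 2.74 (limma adjusted p = 0.233) and high from sub by -1.95 ± 2.74 (limma adjusted p = 0.841). Rplp0 and Gm8730 summed to 4217, 3016 and 3111 in neg, 5763, 2266 and 4309 in sub, 3193, 7263 and 5226 in low, and 4256, 3971 and 6045 in high. Every population overlapped every other in this sum, with means of 3448 ± 668, 4113 ± 1757, 5228 ± 2035 and 4757 ± 1125 (SD, n = 3). When all pseudogene copies were added to their member before the fit, Rplp0 differed between low and sub by 0.37 ± 0.40 (limma adjusted p = 0.779) and between high and sub by 0.29 ± 0.40 (limma adjusted p = 0.844). Whether the reads under Gm8730 came from Rplp0 messenger RNA or from the pseudogene itself was not tested.

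**Figure D3:**
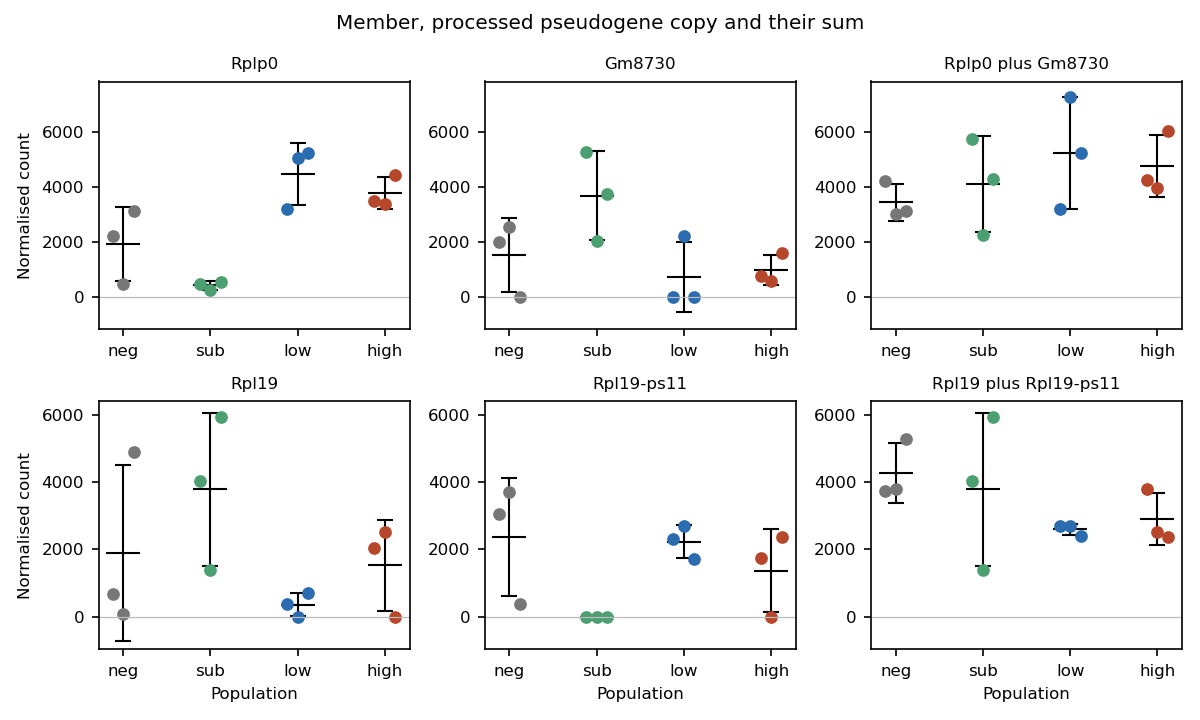
Normalised counts by population of Rplp0, Gm8730 and their sum (top) and of Rpl19, Rpl19-ps11 and their sum (bottom); points are libraries, the bar and whiskers are the mean ± SD (n = 3). The sub points of Rplp0 lie at 245 to 548, below all low and high points, and the same libraries of the sum lie at 2266 to 5763, overlapping the range of the others.

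Neither of the other stalk proteins passed the test in any comparison. Rplp1 was at 2449, 1853 and 313 in neg, 1329, 824 and 3162 in sub, 1891, 3253 and 3036 in low, and 1217, 1129 and 1459 in high. All its low libraries exceeded its high libraries, with a log2 difference of -1.07 ± 0.76 (limma adjusted p = 1). Rplp2 was at 1120, 641 and 957 in neg, 791, 402 and 1473 in sub, 791, 104 and 0 in low, and 858, 1218 and 553 in high. Its lowest values were in low 2 and low 3, and low differed from neg by -4.34 ± 1.74 (limma adjusted p = 0.203). Rpsa, the small-subunit protein also known as a laminin receptor, was at 4539, 1267 and 2805 in neg, 3254, 4883 and 4078 in sub, 1764, 7736 and 3972 in low, and 2964, 2441 and 2342 in high. Its sub libraries were above its high libraries, a log2 difference of -0.65 ± 0.53 (limma adjusted p = 0.707).

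Counts under pseudogene symbols were common throughout the members. A sequence search matched 591 pseudogene symbols at 95% identity or more over at least 50% of their length to 76 of the members, and 246 of them were above 0. The copies of Rpl32 included Rpl32l, which is itself a member, so its value stood both alone and in the Rpl32 sum. These copies held 16.2 to 32.1% of the combined value of members and copies per library. Of 948 values of the 79 tested members, 195 were 0, and in 70 of these the member's copies were above 0, in 58 so that the sum reached at least 100. The number of tested members above 0 in every library was 22 alone and 40 with their copies, a number that adding counts can only raise. Over 50% of the combined value lay under copies for 11 members, and for Rpl36a it was 87.3%, mostly under Rpl36a-ps2.

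Adding copies moved the median SD of log2 values of the 79 tested members from 3.01 to 2.49, and that of some members by more. The SD fell for 42 members, rose for 24 and was equal for 13. The rises included Rpl35 (2.02 to 4.09), Rpl27 (2.78 to 4.33) and Rps25 (2.67 to 3.94), large- and small-subunit proteins of low mean level. Of the 57 tested members with an SD of log2 values above 2, 13 fell below 1 when their copies were added. Among them were Rpl3, Rpl5, Rpl6, Rpl12, Rpl19, Rpl21, Rpl23, Rpl23a, Rpl26, Rpl36a, Rps6 and Rps23. Adding counts to a library at 0 tends to lower the SD of a member that is high elsewhere, whichever counts are added. No unrelated genes were added for comparison. Rpl5, which with Rpl11 restrains the p53 regulator MDM2, was at 4241, 0 and 3885 in neg, 1778, 7542 and 3820 in sub, 3981, 8018 and 6405 in low, and 6461, 4194 and 3039 in high. Its fully identical copy Gm15500 held 4016 in neg 2, where Rpl5 was at 0, and was itself at 0 in sub 2, where Rpl5 was at 7542. With all copies the sums of Rpl5 ranged from 4017 to 8021, and the SD fell from 3.55 to 0.38. Rpl21, a large-subunit protein, was at 0 in neg 2 and sub 2, and its sum with copies ranged from 1525 to 3567. The sum for Rps6 ranged from 440 to 4024 (SD 0.91 in place of 5.39), and most of the value under its copies lay under Rps6-ps4.

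Rpl19, a large-subunit protein near the tunnel exit, and Rpl19-ps11 also differed in which libraries they were high. Rpl19 was at 687, 92 and 4889 in neg, 4034, 1395 and 5920 in sub, 385, 0 and 700 in low, and 2042, 2525 and 0 in high, and low differed from sub by -5.64 ± 2.59 (limma adjusted p = 0.472). In the 3 sub libraries Rpl19-ps11 was at 0, and in low it lay at 1705 to 2698. The mean of their sum (± SD, n = 3) was 4265 ± 878 for neg, 3783 ± 2273 for sub, 2595 ± 165 for low and 2891 ± 776 for high. All low libraries of this sum lay below all neg libraries. With all copies added, Rpl19 in low differed from neg by -0.68 ± 0.48 (limma adjusted p = 0.543).

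**Figure D4:**
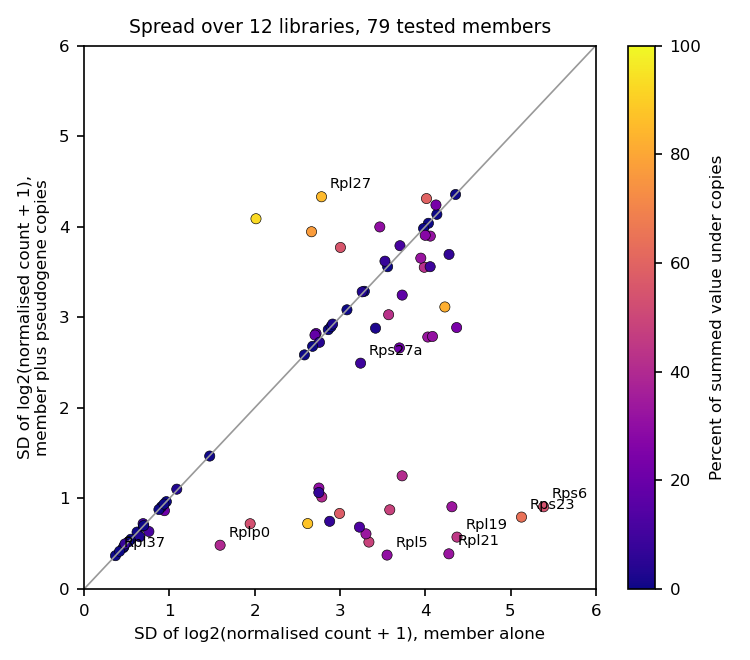
SD of log2(normalised count + 1) over the 12 libraries for each of the 79 tested members alone (horizontal axis) and with its pseudogene copies added (vertical axis), coloured by the percent of the combined value under copies; the line marks equal values. Points far below the line, such as Rps6 (5.39 to 0.91) and Rpl5 (3.55 to 0.38), had a smaller SD with copies added. Above the line lie 24 members, such as Rpl27 (2.78 to 4.33).

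Under 1% of the combined value lay under copies for 24 tested members, among them Rpl37, Rpsa, Rpl29 and Rpl4, and at least 20% for 34. With copies included, 125 of the 948 values were still 0, among them 7 for Rpl35, 9 for Rpl37a and 7 for Rps25, members of low mean level. Only pseudogene transcripts were matched as copies, so the protein-coding Rps27rt was not added to Rps27. Rps27 stayed at 0 in 7 libraries, and Rps27rt was above 0 in each of them. The single copy matched to Rps21, a small-subunit protein, was at 0 throughout, and Rps21 stayed at 0 in 4 libraries.

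In the limma fit, few members passed in any comparison. Sub against neg had 0 of 79 members past an adjusted p of 0.05, where 1.19% of all genes tested passed, and 8 at an unadjusted p of at most 0.05, beside 9.54% of all genes. Low against sub had 1 of 79, Rplp0, beside 0.744%, and 8 at the unadjusted level, beside 10.2%. High against low had 0, as did the whole table (0%), and 3 at the unadjusted level, beside 4.24%. Low against neg had 0, beside 4.69%, and 14 at the unadjusted level, beside 16%. High against neg had 0, again beside 4.69%, and 8 at the unadjusted level, beside 16.4%. High against sub had 1, Rplp0, beside 0.986%, and 5 at the unadjusted level, beside 10.2%. The F test had 1, Rplp0, beside 4.23%.

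The count models, run on recovered reads, differed in how much they called. In the same order of comparisons, edgeR called 0, 1, 0, 0, 0 and 1 of the 79 members, each time Rplp0, beside 1.28, 1.11, 0.211, 3.73, 3.84 and 1.41% of all genes. DESeq2 called 4, 3, 1, 3, 2 and 2 members, beside 10.1, 9.83, 4.24, 14.2, 13.7 and 9.26% of all genes, so that the members' share was below that of the table in each comparison. The members called by DESeq2 beside Rplp0 were Rpl36, Rps4l, Rps16, Rps27 and Rps28, each at 0 in 6 to 9 of the 12 libraries. In the limma fit, leaving out 1 library brought in members other than Rplp0, among them Rpl7a and Rps27a in sub against neg without sub 3, Rps2 and Rps27 in low against neg without neg 1, Rplp2 there without low 1, and Rpl37a in low and in high against neg without neg 3. Without sub 3, Rpl7a was also called in low against sub, and in high against sub, where it took the place of Rplp0. Sub against neg called Rplp0 without neg 2.

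The differences varied widely among members. The median log2 change of the 79 members was 0.34 for sub against neg, 0.57 for low against sub, -0.21 for high against low, 0.01 for low against neg, 0.31 for high against neg and 0.17 for high against sub. Over all genes tested the medians were 0, 0, 0, 0, 0.13 and 0.20. The members' medians moved when 1 library was left out: from -0.19 (without neg 2) to 0.45 for sub against neg, from 0.15 (without sub 1) to 0.66 for low against sub, and from -0.28 to 0.089 (without high 3) for high against low. They lay from -0.19 (without neg 2) to 0.59 (without neg 1) for low against neg, from 0.003 (without neg 2) to 0.78 (without high 3) for high against neg and from 0 (without sub 2) to 0.49 (without high 3) for high against sub. The median SE of a single member's change was 2.05. With copies added it was 1.51, and 0 members passed in any comparison (lowest limma adjusted p = 0.0815, Rps2 in low against neg, with 5 members at an unadjusted p of at most 0.05 there).

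**Figure D5:**
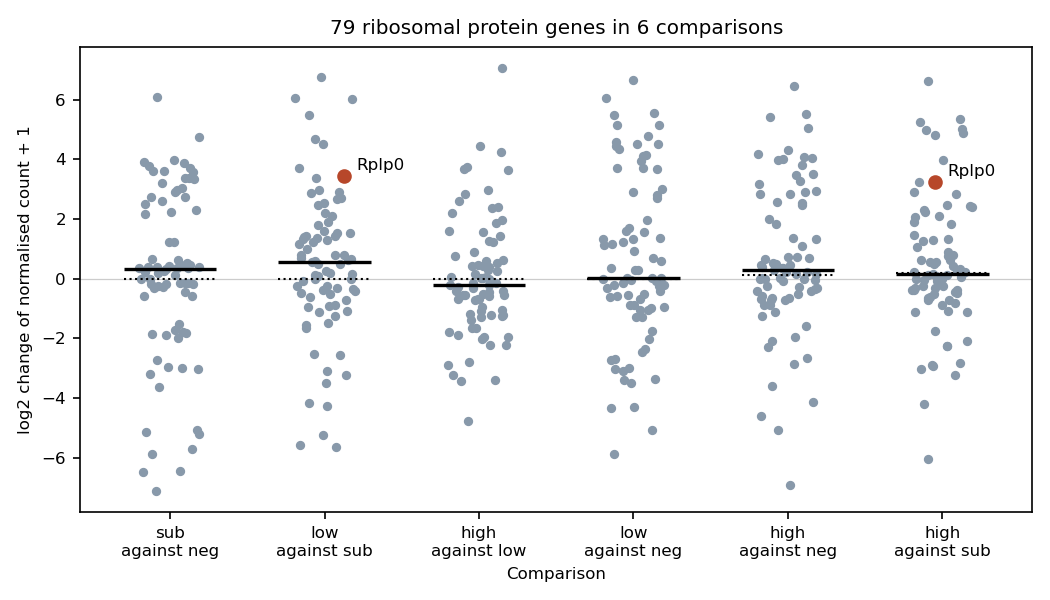
Log2 change of each of the 79 tested members in the 6 comparisons; the solid line is the members' median, the dotted line the median of all 16128 genes tested, and the red points are the members past an adjusted p of 0.05. Rplp0 in low against sub (3.45) and in high against sub (3.23) is the only red point, and many grey points lie further from 0 than it does.

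Libraries of 2 populations that did not overlap were also counted. In sub against neg this held for 4 of 79 members, among them Rpl8 and Rpl10, which were higher, and Rps27a, which was lower, where 9.68% of all genes tested did not overlap. Low against sub had 11 such members beside 11.7% of all genes, high against low 7 beside 7.34%, low against neg 7 beside 16.9%, high against neg 8 beside 18.8% and high against sub 10 beside 13.1%. The members' counts correspond to shares near or below those of all genes, and nothing is read from them for the group as a whole.

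Rps27a and Rpl7a were low in sub without passing the limma test on all libraries, while edgeR on 10 libraries called Rpl7a in sub against neg, low against sub and high against sub. That run lacks sub 3, the only sub library with Rpl7a above 0, and edgeR on 12 libraries did not call Rpl7a. Rps27a, made as a fusion with ubiquitin, was at 549, 697 and 1796 in neg, 11, 0 and 392 in sub, 535, 509 and 1603 in low, and 1213, 1544 and 178 in high. Sub differed from neg by -5.72 ± 1.79 (limma adjusted p = 0.188) and with copies by -4.25 ± 1.51 (limma adjusted p = 0.292). Rpl7a, a large-subunit protein, was at 0, 0 and 424 in sub and at 135 to 2832 elsewhere, and its difference of -6.45 ± 2.05 between sub and neg (limma adjusted p = 0.199) was -1.38 ± 1.03 with copies (limma adjusted p = 0.703).

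Rpl4, which reaches into the exit tunnel and had under 1% of its value under copies, was at 2990, 1049 and 2492 in neg, 3450, 1601 and 2053 in sub, 3944, 5555 and 5627 in low, and 2247, 2631 and 2947 in high. All low libraries were above all others. Low differed from neg by 1.33 ± 0.48 (limma adjusted p = 0.151), from sub by 1.15 ± 0.48 (limma adjusted p = 0.409), and high from low by -0.94 ± 0.48 (limma adjusted p = 1).

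The members were also counted by role. The 17 members linked to inherited anaemia (Diamond-Blackfan anaemia) had 0 past the threshold in each of the 6 comparisons, and 3 of 17 at an unadjusted p of at most 0.05 in high against neg, their highest number. Rpl5, Rpl11, Rpl23 and Rpl26, regulators of p53, had 0 of 4 past the threshold in each comparison and 3 of 4 at an unadjusted p of at most 0.05 in low and in high against neg, the comparisons in which 16 and 16.4% of all genes reached that level; with copies added it was 0 of 4 in both. Rpl5 and Rpl11 were at 0 in neg 2 and Rpl23 in neg 3. The 8 proteins of the decoding site and small-subunit head, and the 8 around the peptidyl transferase centre and tunnel exit, also had 0 past the threshold in each comparison and at most 2 at an unadjusted p of at most 0.05. For the decoding proteins the 2 of 8 were in low against neg, beside 16% of all genes, and for the tunnel proteins in low against sub, 1 higher and 1 lower, beside 10.2%.

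Several members have a second gene of similar sequence. Rpl3, Rpl10 and Rpl39 had mean normalised counts of 1978, 491 and 143, while Rpl3l, Rpl10l and Rpl39l, known from muscle and testis, were at 0 throughout. Rps4l was at 0 in 6 of the 12 libraries, the 3 of neg among them, beside a mean of 1566 for Rps4x. Rps27l was above 0 in only low 1 (14.8) and high 2 (431). Rps27 was above 0 in neg 2 (692), neg 3 (289) and high 2 (13.1), while Rps27rt was at 55.3, 0 and 0 in neg, 1056, 489 and 746 in sub, 422, 493 and 31.2 in low, and 871, 457 and 539 in high. Rps27rt was higher in high than in neg by 7.29 ± 1.97 (limma adjusted p = 0.0377), a fitted value that depends on the pseudocount because 2 neg libraries were at 0. The call was lost without neg 2, neg 3, sub 1, low 1 or any 1 high library (highest limma adjusted p = 0.142), with edgeR, and when only the populations compared were fitted (highest adjusted p of all alternatives 0.453). The mean of the pair's sum (± SD, n = 3) was 345 ± 322 for neg, 764 ± 284 for sub, 315 ± 248 for low and 627 ± 214 for high.

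Within 29 members the annotation places small nucleolar RNA genes on the same strand, among them Rpl37, Rpl5, Rpl13a, Rpsa and Rpl4. All 29 were tested, with a median of 742 normalised counts and 770 per kb, against 377 and 520 per kb for the other 50 tested members. Counts of 30 members may also take in reads of another annotated gene that overlaps them, on the opposite strand for 22; the use of strand in counting is not given in the sources used here.

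Other parts of the translation apparatus were counted for comparison, with limma adjusted p for every gene named in this paragraph. None of the 64 mitochondrial ribosomal protein genes tested and none of 9 elongation factor genes passed in any comparison; at an unadjusted p of at most 0.05 the mitochondrial set had at most 4 (low and high against sub, each beside 10.2% of all genes) and the elongation factors at most 2 (sub against neg, beside 9.54%). Of 29 initiation factor genes, 2 rose in low against neg and 1 in high against neg, comparisons in which 4.69% of all genes were called. Eif3a, the largest subunit of eIF3, was at 13569, 9181 and 11085 in neg and 16600, 21749 and 20765 in low, a log2 change of 0.81 ± 0.17 (adjusted p = 0.00691), and changed by 0.62 in high (adjusted p = 0.0390). Eif5b, which joins the subunits, rose by 0.90 ± 0.23 in low against neg (adjusted p = 0.0265). The Eif3a call in low was lost without low 2 and that in high without neg 2, neg 3, low 2, low 3 or any 1 high library; the Eif5b call was lost without neg 1 or any 1 low library. Of 32 ribosome biogenesis genes tested, only Ncl (nucleolin, a nucleolar protein of ribosomal RNA processing) passed. It was at 22975, 22844 and 21365 in neg and at 29656 to 42296 in all other libraries. Against neg, Ncl was higher in sub by 0.60 ± 0.11 (adjusted p = 0.00602) and in low by 0.71 (adjusted p = 0.000519). In high its difference from neg was 0.47 (adjusted p = 0.0159). The share of all genes called was 1.19% for sub, 4.69% for low and 4.69% for high, each against neg. The Ncl call in sub was lost without sub 1 and that in high without neg 3 or high 3, while the call in low was kept without any 1 library. The neg libraries also stood apart in the share of mitochondrial transcripts, 2.84 to 3.81% of normalised counts against 6.19 to 7.69% in the others, and in the biliary and endothelial marker sums given above; the part of these in the Eif3a, Eif5b and Ncl differences was not tested. All of these Eif3a, Eif5b and Ncl calls were also lost without a variance trend, when only the populations compared were fitted, and with DESeq2, with adjusted p of up to 0.869. Without the filter on low values the Eif3a and Ncl calls in high, the Eif5b call and the Ncl call in sub were lost as well. With edgeR on 12 libraries the Eif5b call and the Eif3a call in high were lost, and on 10 libraries the Ncl call in high too; quantile normalisation ended the Eif3a and Ncl calls in high.

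Among 20 other TOP messenger RNAs only Vim passed the limma threshold. It did so in low against sub, low against neg, high against neg and high against sub. In these comparisons 0.744, 4.69, 4.69 and 0.986% of all genes passed. At an unadjusted limma p of at most 0.05, low against neg had 4 of the 20 higher and 1 lower, beside 16% of all genes. High against neg had 3 higher and 2 lower, beside 16.4%. Vim, the mesenchymal intermediate filament vimentin, fell by 4.90 ± 0.99 from sub to low (limma adjusted p = 0.0282) and was lower in low and high than in neg. The call in low against sub was lost without any 1 neg or sub library, low 2 or low 3, and that in low against neg without neg 3, low 2 or low 3. Both were lost without a variance trend, the first also without the filter on low values and when only the populations compared were fitted. That last fit also ended the calls in high against neg and high against sub (limma adjusted p = 0.0876 and 0.206). The stellate and mesenchymal marker sum moved with it, at 0.208 to 0.377% in neg, 0.254 to 0.336% in sub and at most 0.0258% in low and high; its part in the Vim difference was not tested. The 16 genes of mTORC1 and S6 kinase signalling and 9 transcription factors, among them Gabpa, Yy1, Sp1 and Myc, had 0 past the threshold in all 6 comparisons. At an unadjusted p of at most 0.05 the signalling genes had at most 1 and the transcription factors at most 3, in high against neg, beside 16.4% of all genes.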

How the data were processed

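The data were 1 table, deposited by the authors, with a signal for each gene symbol in each library: read counts scaled between libraries (normalised counts). The submitters' processing notes name Salmon, DESeq2 1.26.0 and mm10, with no role or order; annotation and strand are not given in the sources used here. Per the labels' protocols, total RNA was DNase-treated (30 min) and sequenced from a stranded low-input SMARTer Pico v2 preparation. All values above 0 (100%, tolerance 0.01) were whole multiples of 1 step per library (0.691 to 1.22), so reads were recovered. In sub 3 and high 2 the step lies near 1, and edgeR was also run on the other 10 libraries.

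Genes with a mean of at least 10 (16128) were transformed to log2(normalised count + 1) and fitted with limma 3.58.1 (variance trend, R 4.3.3) with 1 coefficient per population, using all 12 libraries; tests were two-sided, Benjamini-Hochberg adjusted over all genes at 0.05. Alternatives used edgeR 4.0.16 quasi-likelihood and DESeq2 1.42.0 on recovered reads; an adjusted p with no tool beside it comes from limma. Each fit was also run on simulated counts, drawn with a small spread common to all genes and without added zeros. The real values have many libraries at 0, so that run cannot show how well errors are controlled here. Log2 changes are on this scale, which understates changes of genes low in all libraries. Where some libraries are at 0 and others high, the change can exceed that between the population means. Gm8730, for example, had a log2 change of -8.04 in low against sub, with means of 736 in low and 3689 in sub. Pseudogene copies were matched with BLAST 2.17.0 to GENCODE M21 transcripts.

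Members and gene lists were chosen with earlier results of these data known. Members were named when past the threshold, among the 5 highest means, the 3 smallest or 3 largest SDs, as stalk proteins, Rpsa or Rps6, or in a pair with a second gene; Rpl4, Rpl7a, Rps27a, Rpl21, Rpl36a, their copies and members named in counts were chosen after their values were seen. Adding copies and edgeR on 10 libraries were alternatives chosen after seeing the data. Some genes that these rules or counts take in are not reported here by name.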

Additional observations from a re-analysis of the deposited data

How the results depend on the processing

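The count of members past the threshold was recomputed under 26 alternatives for each comparison (25 for the F test, which has no fit of 2 populations). In sub against neg it moved from 0 to 4 with DESeq2 and 1 with edgeR on 10 libraries; in low against sub from 1 to 0 without a variance trend, with only the populations compared and with all pseudogene copies added, to 3 with DESeq2 and to 2 with edgeR on 10 libraries; in high against low from 0 to 1 with DESeq2. Low against neg moved from 0 to 3 with DESeq2 and 1 with edgeR on 10 libraries, high against neg from 0 to 2 with DESeq2, high against sub from 1 to 0 without a filter, without a variance trend, with only the populations compared and with copies added, and to 2 with DESeq2 and with edgeR on 10 libraries, and the F test from 1 to 0 without a variance trend and with copies added and to 3 with edgeR on 10 libraries. The cause of these moves was not tested, except that adding copies changes the values themselves. Leaving out each library in turn gave 0 to 2 members for sub against neg, low against sub and low against neg, 0 for high against low, 0 to 1 for high against neg and high against sub, and 1 to 3 for the F test. Rplp0 in sub against neg turned from -1.88 to 0.17 with copies added, and passed with DESeq2 (adjusted p = 0.0134) and without neg 2 (limma adjusted p = 0.0213). Summed shares in neg, sub, low and high were 0.852, 0.792, 0.906 and 0.896% with -ps symbols added; 0.803, 0.805, 0.924 and 0.895% with mitochondrial genes and Malat1, which take a large and variable part of all counts, out of the total, where neg no longer lay above sub; 0.937, 0.918, 0.985 and 0.948% with all copies added; and 0.605, 0.591, 0.681 and 0.622% without the largest member. Without 1 library the shares ranged from 0.624 to 0.855% in neg, 0.662 to 0.722% in sub, 0.732 to 0.842% in low and 0.739 to 0.822% in high. With the replicate number as a block, 1 member passed in low against sub and 1 in high against sub, both Rplp0 (limma adjusted p = 0.0164 and 0.0204), and the block changed no count of members. Deviations of same-numbered libraries from their population means correlated by -0.0161 to 0.0266 over all tested genes (18 pairs, mean 0.0088). Differently numbered libraries correlated by -0.0447 to 0.0234 (36 pairs, mean -0.0044). The numbers were not taken to pair the libraries, though correlations this small do not settle whether they are paired. Same-numbered libraries also carry the same column suffix, whose meaning the labels do not give. The median SE of a member's change was 2.05, and what part depth has in it was not tested.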
